A study of Mus musculus with 126 samples.

Results

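Interferons are cytokines that cells release or receive when nucleic acids of microbes, or of damaged cells, are sensed. Type I interferons (alpha and beta) act through JAK1 and TYK2 to form ISGF3, a complex with STAT2 and IRF9 that binds interferon-stimulated response elements, whereas type II interferon (gamma) acts mainly at gamma-activated sites and through IRF1. In the intestine these programmes arm epithelial cells against viruses and intracellular bacteria and raise antigen presentation, and most of the genes answer to both kinds of interferon in some degree. The 45 genes described here are known interferon-induced genes, chosen by name but with earlier results of these data known. Each was found once in every one of the 7 tables of 24883 rows. By textbook knowledge 26 lean to type I, 12 lean to type II and 7 are shared. Of the 45 genes, 44 passed the filter on low values; the exception was Gbp4, a guanylate-binding protein whose highest condition mean was 0.418. The tested genes numbered 11377.

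RNA was sequenced from the colon of mice in 7 conditions, each sampled at zeitgeber times (ZT) 0, 4, 8, 12, 16 and 20 with 3 replicates, so that each condition had 18 libraries. Bmal1 knock out, MR knock out and wild type mice ate a normal chow diet ad libitum. Both knock outs are gut-specific, and the knock out mice were 8 to 12 weeks old. BMAL1, encoded by Arntl, is a core clock factor, and MR, encoded by Nr3c2, is the mineralocorticoid receptor through which aldosterone acts. The other 4 groups were 8-week-old male C57BL/6 mice on time-restricted feeding: high salt day fed, low salt day fed, high salt night fed and low salt night fed, under 12 h of light and 12 h of dark. The sources used here do not state which promoter drove the gut-specific deletions, the strain and sex of the ad libitum mice, or the age of the wild type mice. Nothing in the labels says that replicates came from separate animals, so the p-values measure the spread between these libraries.

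Values are FPKM, an abundance of RNA fragments set relative to transcript length and sequencing depth, brought to a common scale over all libraries. Each condition was deposited as a table of its own, so every difference between conditions is set across tables and rests on that scaling. Daily variation lies within a table but also rests on the scaling, since scale factors differed within tables (0.297 to 1.48 in Bmal1 knock out, 0.389 to 1.334 in high salt night fed). A gene was called at an adjusted p under 0.05 (limma, Benjamini-Hochberg over all 11377 genes), and log2 differences, with folds derived from them, are on the scale of log2(rescaled FPKM + 0.5), which understates the change of weakly expressed genes. Each targeted gene was lower in its own knock out, but both genes were called lower than in wild type in each knock out. The medians of their summed FPKM were 25.9 in wild type, 8.86 and 8.99 in the Bmal1 and MR knock outs, and 13.6 to 15.8 in the feeding groups. Nr3c2 averaged 3.05 in MR knock out and 15.1 in wild type, with no overlap between the 18 libraries of each (1.66 to 5.33 against 7.05 to 23.2). Arntl averaged 4.41 in Bmal1 knock out and 9.32 in wild type, with overlapping ranges (2.87 to 6.28 against 2.25 to 19.2). Colon epithelial markers were abundant in all conditions (medians of their summed FPKM from 6609 to 10290), and smooth muscle markers were near 0 (medians of their sums from 0.102 to 0.18). In 14 libraries most genes were read low before scaling (a scale factor under 0.6), 9 of Bmal1 knock out and 5 of high salt night fed. Counts for differences averaged over the times were repeated without them. Counts at single times, of variation with time and of rhythm were not.

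Promoters of 5 members are shown as examples of where the short elements known from the pathway lie. Each runs from 250 bases before to 50 bases after the transcription start, in the gene's own direction, from RefSeq (GRCm38.p6). Capitals mark matches to the core of the interferon-stimulated response element (GAAANNGAA) or of the gamma-activated site (TTCNNNGAA), on either strand. Isg15 lies on the minus strand at chr4:156200769-156201068, Ifit1 on the plus strand at chr19:34640639-34640938, Gbp2 on the plus strand at chr3:142620413-142620712, Igtp on the plus strand at chr11:58199306-58199605 and the first start of Irf1 on the plus strand at chr11:53769764-53770063.
Isg15: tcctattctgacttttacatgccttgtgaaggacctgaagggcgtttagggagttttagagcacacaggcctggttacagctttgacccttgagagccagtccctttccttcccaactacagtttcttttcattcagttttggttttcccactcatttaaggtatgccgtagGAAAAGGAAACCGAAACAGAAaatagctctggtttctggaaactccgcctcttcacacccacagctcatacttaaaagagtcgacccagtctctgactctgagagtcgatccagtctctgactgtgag
Ifit1: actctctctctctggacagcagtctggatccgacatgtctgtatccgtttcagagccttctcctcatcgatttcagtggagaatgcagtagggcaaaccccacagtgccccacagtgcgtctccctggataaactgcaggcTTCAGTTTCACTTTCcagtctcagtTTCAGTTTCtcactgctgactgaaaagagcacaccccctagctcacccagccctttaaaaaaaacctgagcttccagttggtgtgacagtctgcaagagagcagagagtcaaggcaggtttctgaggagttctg
Gbp2: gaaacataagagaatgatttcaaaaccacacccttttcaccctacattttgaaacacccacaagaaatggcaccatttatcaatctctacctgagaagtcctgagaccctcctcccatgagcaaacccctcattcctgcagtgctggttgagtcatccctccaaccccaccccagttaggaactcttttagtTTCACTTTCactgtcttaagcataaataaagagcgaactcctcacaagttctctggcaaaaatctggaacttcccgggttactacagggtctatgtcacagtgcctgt
Igtp: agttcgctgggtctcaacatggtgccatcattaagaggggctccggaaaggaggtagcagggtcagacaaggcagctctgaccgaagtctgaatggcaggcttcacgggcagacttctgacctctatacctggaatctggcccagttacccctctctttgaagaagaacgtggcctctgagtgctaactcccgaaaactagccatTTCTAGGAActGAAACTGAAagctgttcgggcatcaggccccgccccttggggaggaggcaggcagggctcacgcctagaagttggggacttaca
Irf1: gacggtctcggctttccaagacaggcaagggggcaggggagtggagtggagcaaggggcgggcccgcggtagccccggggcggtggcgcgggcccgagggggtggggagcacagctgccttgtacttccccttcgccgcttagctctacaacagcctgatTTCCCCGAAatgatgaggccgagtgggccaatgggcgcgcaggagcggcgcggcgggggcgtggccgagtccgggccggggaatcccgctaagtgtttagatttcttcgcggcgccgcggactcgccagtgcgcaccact
The type I leaning Isg15 and Ifit1 each hold 3 matches to the response element core, those of Isg15 overlapping from 78 bases before the start and those of Ifit1 on the opposite strand. Of the type II leaning genes, Gbp2 holds a response element core, Irf1 a gamma-activated site core at 90 bases before the start, and Igtp both. No match lies in the promoter window of Irf7 (chr7:141266375-141266674, minus strand). RefSeq promoters were found for 32 of the 45 members (Usp18 is among those without one). Of these, 20 (62.5%) hold the response element core, against 9.76% of 27025 genes, and 10 (31.2%) hold the gamma-activated site core, against 9.55%. By class, the response element core was in 12 of 19 type I and 8 of 9 type II members, and the gamma-activated site core in 3 of 19 type I and 6 of 9 type II members. Of the 4 shared members with a promoter, 0 held the response element core and 1 the gamma-activated site core. Members with neither core in any window included Irf7, Oasl1, Oasl2, Herc6, Cmpk2, Xaf1 and Irf9. These are matches of letters, not sites of binding.

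Several members are neighbours or near copies, so they are not independent readings. Ifit2, Ifit3 and Ifit1 lie within 99 kb on chromosome 19, Oas2, Oas3 and Oas1a within 177 kb on chromosome 5, Gbp7, Gbp3 and Gbp2 within 108 kb on chromosome 3, and Parp14, Dtx3l and Parp9 within 140 kb on chromosome 16 (mm10). Transcripts of Tgtp1 and Tgtp2 are 99.8% identical, so reads can be split between them and their separate values are uncertain. The same holds for Gbp6 with Gbp10 (98.7%), Ifit3 with Ifit3b (97.8%) and Oas1a with Oas1g (97.6%).

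Seen over the 7 conditions, the members had 2 low groups. Wild type and high salt night fed were the lowest 2 of the 7 condition means for 41 of 44 members, where 2.43% of all genes tested had that order. The exceptions were Ifih1, Tgtp1 and Dtx3l. The highest mean was in MR knock out for 24 members, in Bmal1 knock out for 13 and in high salt day fed for 7. Of the 26 type I leaning members, 17 were lowest in high salt night fed and 9 in wild type. Of the 11 tested type II leaning members, 10 were lowest in wild type. These 2 groups were close, with medians of the member means of 2.42 in high salt night fed and 2.48 in wild type. Shares of all genes with these highest or lowest means were not counted, and a difference between the classes was not tested. Bulk RNA does not tell fewer cells of a type from less RNA per cell, in this and every result below.

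**Figure D1:**
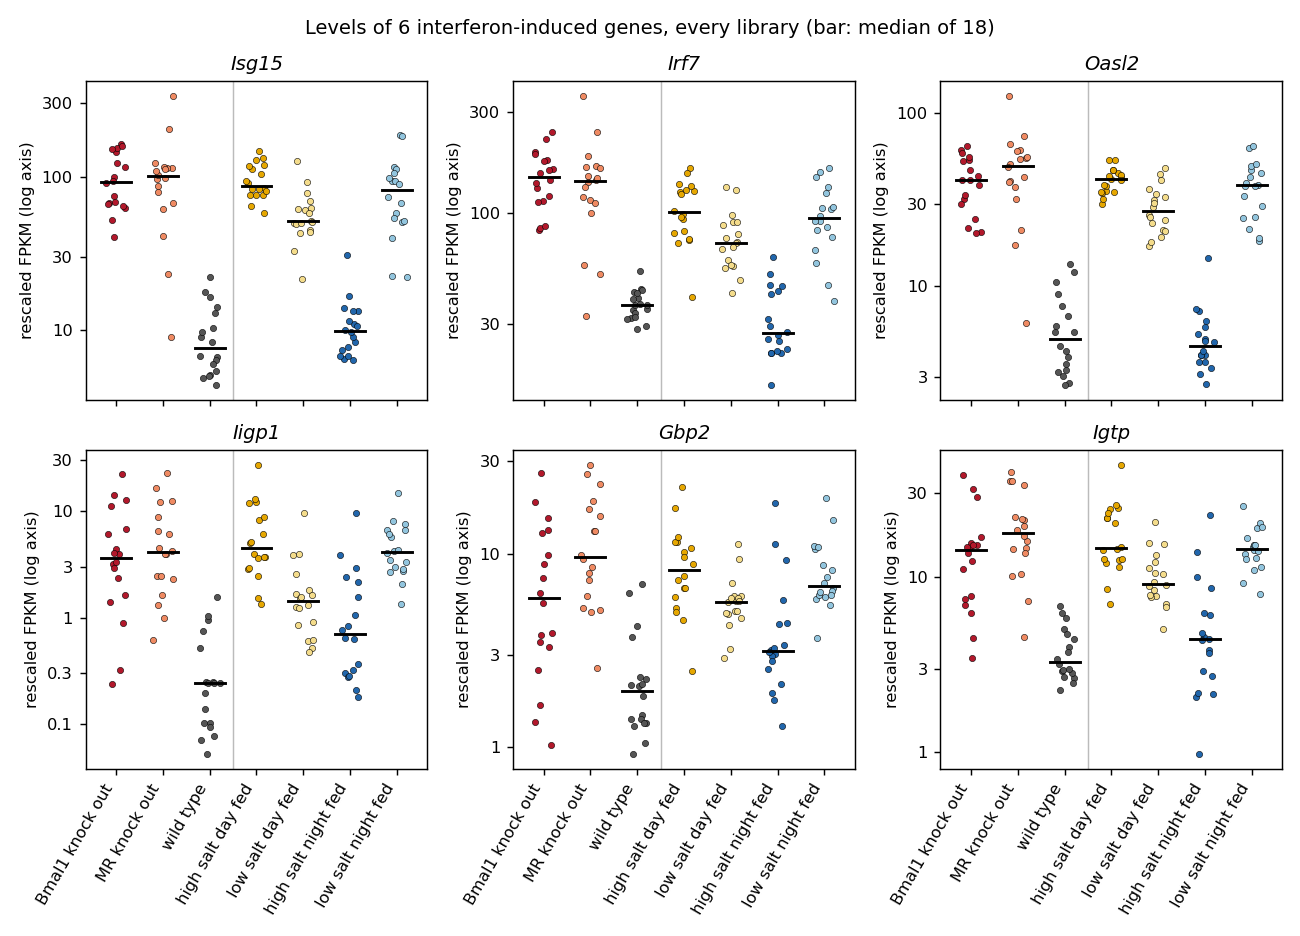
Rescaled FPKM (log axis) of 3 type I leaning genes (top) and 3 type II leaning genes (bottom) in all 18 libraries of each condition; bars are medians. Isg15 has medians of 92.6 and 100.2 in the knock outs and 7.60 in wild type, and 9.87 in high salt night fed against 81.4 in low salt night fed.

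In the Bmal1 knock out colon, 41 of 44 members were higher than in wild type and none was lower, where 31.1% of all genes were called higher. The median log2 difference was 1.58 over the members, 1.88 over type I, 1.55 over type II and 0.65 over shared members, against -0.13 over all genes. The members without a call were Ifih1 (log2 difference -0.05 ± 0.08 SE), a sensor of long double-stranded RNA, Irf1 (0.06 ± 0.08), the transcription factor of the type II response, and Dtx3l (0.12 ± 0.11), a ubiquitin ligase. For 18 members, 17 of them type I leaning, every knock out library lay above every wild type library, as did 0.475% of all genes. The count of 41 was 39 without the 14 libraries of low scale. That leaves no Bmal1 knock out library at ZT12 or ZT16, so the 39 rests on an average over the other times. On the deposited FPKM without rescaling, all genes had a median of -0.89; 29 members were then called higher and 4 lower, Irf1, Dtx3l and Ifih1 among the lower ones (-0.83, -0.69 and -0.87).

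In the MR knock out colon all 44 members were higher than in wild type, where 24.7% of all genes were, and all 44 had the same direction at each of the 6 times. The median log2 difference was 1.57 over the members, 1.80 over type I, 2.01 over type II and 0.86 over shared members, against -0.08 over all genes. The ranges overlapped for most: 2 members, Oasl1 and Ifi27l2a, had every knock out library above every wild type library, as did 0.308% of all genes. Both knock outs are set against the same 18 wild type libraries, so their agreement is not independent.

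Isg15, a ubiquitin-like protein that is attached to other proteins, ranged from 40.5 to 164 FPKM in Bmal1 knock out (median 92.6) and from 9.05 to 338 in MR knock out (median 100.2), against 4.38 to 22.2 in wild type (median 7.60). Its log2 difference was 3.36 ± 0.25 in Bmal1 knock out, 10.3-fold higher (adjusted p = 4.79e-14), and 3.22 ± 0.25 in MR knock out, 9.35-fold (adjusted p = 2.93e-13). Bmal1 knock out and wild type did not overlap, whereas 1 MR knock out library lay inside the wild type range. Usp18, the protease that removes ISG15 and restrains the type I receptor, differed by 2.85 ± 0.22 in Bmal1 knock out and by 2.63 ± 0.22 in MR knock out, with medians of 7.05 and 8.29 against 0.651 in wild type. Herc6, the ligase that attaches ISG15 in mouse cells, was called higher in both (0.97 ± 0.11 in Bmal1 knock out).

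The oligoadenylate synthetase family makes the second messenger that activates RNase L, or binds RNA without making it. All 5 of its members were higher in both knock outs, by 1.78 to 2.96 in Bmal1 knock out and by 1.49 to 2.88 in MR knock out. Oasl2 had medians of 41.0 and 49.7 FPKM in the knock outs and 4.99 in wild type. The IFIT proteins, which bind foreign RNA, rose in both as well. Ifit1 had medians of 20.9 in Bmal1 knock out and 20.2 in MR knock out against 2.67 in wild type (log2 differences 2.52 ± 0.21 and 2.55 ± 0.21). All 10 genes grouped as other antiviral effectors rose in both (Mx2 among them is annotated as a polymorphic pseudogene). However, the Trim30a call in Bmal1 knock out (0.38 ± 0.15) was lost without replicates numbered 2 or 3 (adjusted p = 0.0861 and 0.0959 by limma) and its difference was -0.19 without rescaling. Ifi27l2a, a small mitochondrial interferon-induced protein, had the largest difference of any member, 4.25 ± 0.36 in Bmal1 knock out and 4.89 ± 0.36 in MR knock out (29.6-fold).

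Irf7, the factor that amplifies type I interferon production, ranged from 83.5 to 239.8 FPKM in Bmal1 knock out and from 32.7 to 358 in MR knock out, against 28.6 to 53.6 in wild type. Its medians were 149, 141 and 37.1, and its log2 differences 1.93 ± 0.17 and 1.75 ± 0.17. Bmal1 knock out stood clear of wild type, and MR knock out had libraries within the wild type range. Stat2, a subunit of ISGF3, differed by 1.38 ± 0.11 and 1.12 ± 0.11, and Irf9, its DNA-binding subunit, by 0.88 and 0.83. Of the RNA sensors, Ddx58 (RIG-I) differed by 0.39 and 0.64 and Ifih1 (MDA5), called in MR knock out alone, by -0.05 and 0.33, while their regulator Dhx58 (LGP2) differed by 1.17 and 1.14. Zbp1, a sensor of Z-form nucleic acid that can start necroptosis, had medians of 39.3 and 49.4 against 9.30 in wild type, with log2 differences of 1.95 ± 0.17 and 2.13 ± 0.17.

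Among the type II leaning genes, the 6 immunity-related GTPases, which attack the vacuoles of intracellular pathogens, were all higher, by 0.91 to 2.61 in Bmal1 knock out and by 1.05 to 2.57 in MR knock out. Iigp1 had medians of 3.61 and 4.09 FPKM against 0.243 in wild type. It also had a wide spread, from 0.237 to 22.2 in Bmal1 knock out, so knock out and wild type libraries overlapped. Igtp (IRGM3) had medians of 14.2 and 17.8 against 3.28 in wild type, with log2 differences of 1.62 ± 0.23 and 2.09 ± 0.23, and Irgm1, a regulator of the other GTPases, of 24.6 and 27.3 against 12.6, with 0.91 ± 0.13 and 1.05 ± 0.13. The 4 guanylate-binding proteins tested were all higher in both, although the Gbp7 call in Bmal1 knock out was lost without replicates numbered 2 or 3 (adjusted p = 0.057 and 0.116 by limma) and its difference was -0.05 without rescaling. Gbp2 had medians of 5.92 and 9.64 against 1.94 in wild type, with log2 differences of 1.28 ± 0.28 and 2.06 ± 0.28.

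**Figure D2:**
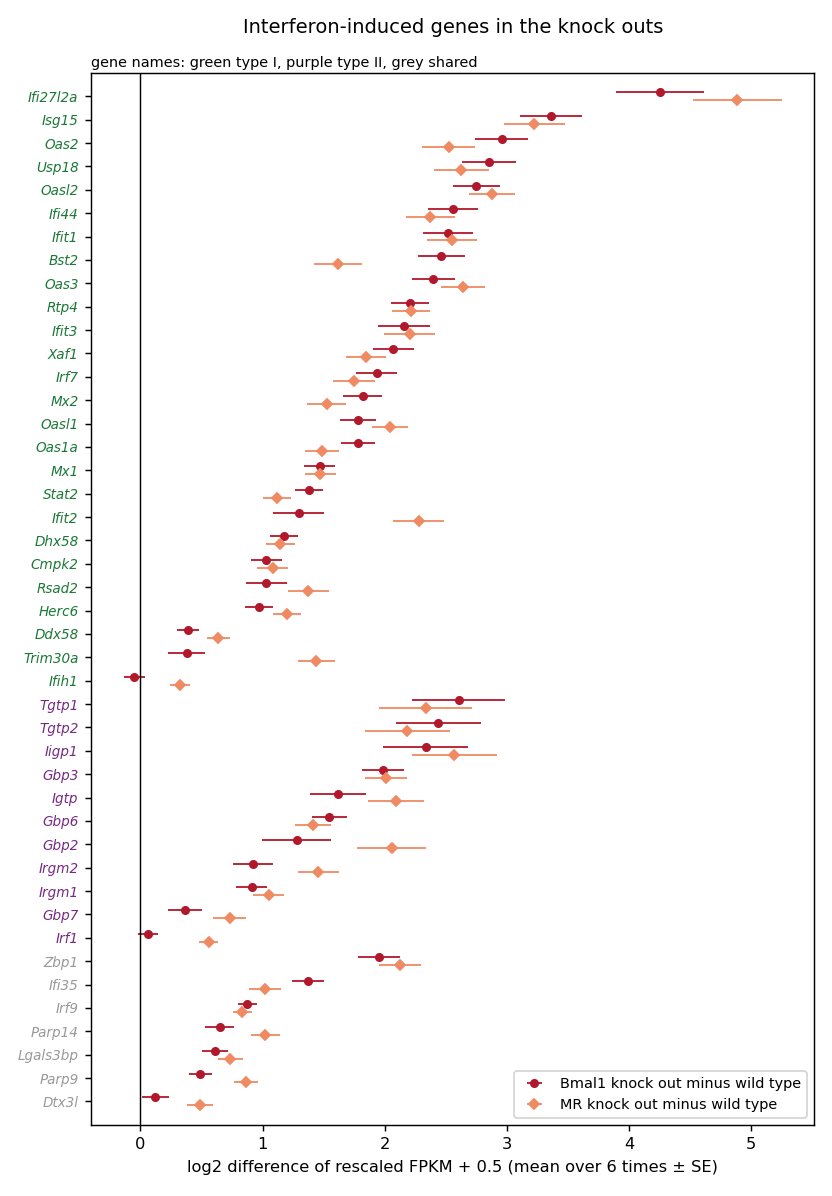
Log2 difference (± SE, over 6 times) of each member in Bmal1 knock out minus wild type (circles) and MR knock out minus wild type (diamonds), grouped by class. All points lie right of 0 except Ifih1 in Bmal1 knock out (-0.05); Trim30a and Ifit2 lie further right in MR knock out and Bst2 in Bmal1 knock out.

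Set directly against each other, the knock outs differed in 14 members. In Bmal1 knock out 3 were higher than in MR knock out (26.6% of all genes were) and 11 were lower (31.9%), shares below those of all genes. Bst2 (tetherin, which holds budding viruses at the membrane) was higher, with a median of 61.6 FPKM (40.9 to 118.1) in Bmal1 knock out and of 43.0 (8.88 to 75.2) in MR knock out (log2 difference 0.85 ± 0.20), as were Stat2 and Ifi35. Trim30a was lower (medians 1.98 and 3.91; -1.06 ± 0.15), as were Ifit2 (-0.98 ± 0.21), Gbp2 (-0.78 ± 0.28, not called without replicates numbered 1 or 2, adjusted p = 0.318 and 0.0534 by limma), Irgm2 (-0.53 ± 0.17) and Irf1 (-0.50 ± 0.08). All 3 genes of the ADP-ribosylation complex, Parp9, Parp14 and Dtx3l, were lower by 0.37 to 0.38 on the log2 scale. This count was 8 without replicates numbered 2 and 6 without the 14 libraries of low scale (averaged over the times left). It was 3 with the scale factor as a covariate and 36 without rescaling. Of all genes, 28.4% differed with the covariate and 90.1% without rescaling, so the members' share stayed below that of all genes in both.

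The MR knock out libraries spread more widely. The median SD of the members within a time was 0.70 on the log2 scale in MR knock out, where it was 0.25 over all genes, and 0.23 in wild type, where it was 0.18 over all genes. At ZT4 the 3 MR knock out libraries had 103, 61.6 and 338 FPKM of Isg15, and at ZT20 they had 203, 97.8 and 9.05. The last of these was at the wild type level, and Iigp1 (0.611), Irf7 (51.5) and Bst2 (8.88) were low in the same library. Without replicates numbered 3, which include it, all 44 members were still called higher in MR knock out.

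At single times, 26 members were higher in Bmal1 knock out than in wild type at ZT0 (20.9% of all genes), 37 at ZT4 (2.75%) and 28 at ZT8 (2.97%). The counts were 32 at ZT12 (22.3%), 41 at ZT16 (22.2%) and 26 at ZT20 (24.6%), when Ifih1 was the only member called lower. The median log2 difference was lowest at ZT20 (1.24) and highest at ZT16, when the type I median was 2.40. All 3 Bmal1 knock out libraries at ZT12 and all 3 at ZT16 are of low scale, as are 1 at ZT0 and 2 at ZT20 and none at ZT4 or ZT8, and the part of scale in the order of the times was not tested. In MR knock out, 25 members were higher at ZT0 (2.53%), 40 at ZT4 (7.56%) and 38 at ZT8 (5.37%), then 30 at ZT12 (8.21%), 37 at ZT16 (3.42%) and 30 at ZT20 (3.63%). Its median lay between 1.44 at ZT0 and 2.07 at ZT4. The type II median in Bmal1 knock out was 1.91 at ZT4, 2.06 at ZT16 and 1.09 at ZT20, while the type I median was 1.81, 2.40 and 1.61 at those times. No member had a difference that was found to vary over the 6 times in either knock out (18.4% of all genes did in Bmal1 knock out and 0.554% in MR knock out; unadjusted p under 0.05 for 3 and 1 members). Summed over the times, Bmal1 knock out had 190 calls, and 161, 90 and 167 without replicates 1, 2 and 3; MR knock out had 200, and 123, 35 and 183.

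**Figure D3:**
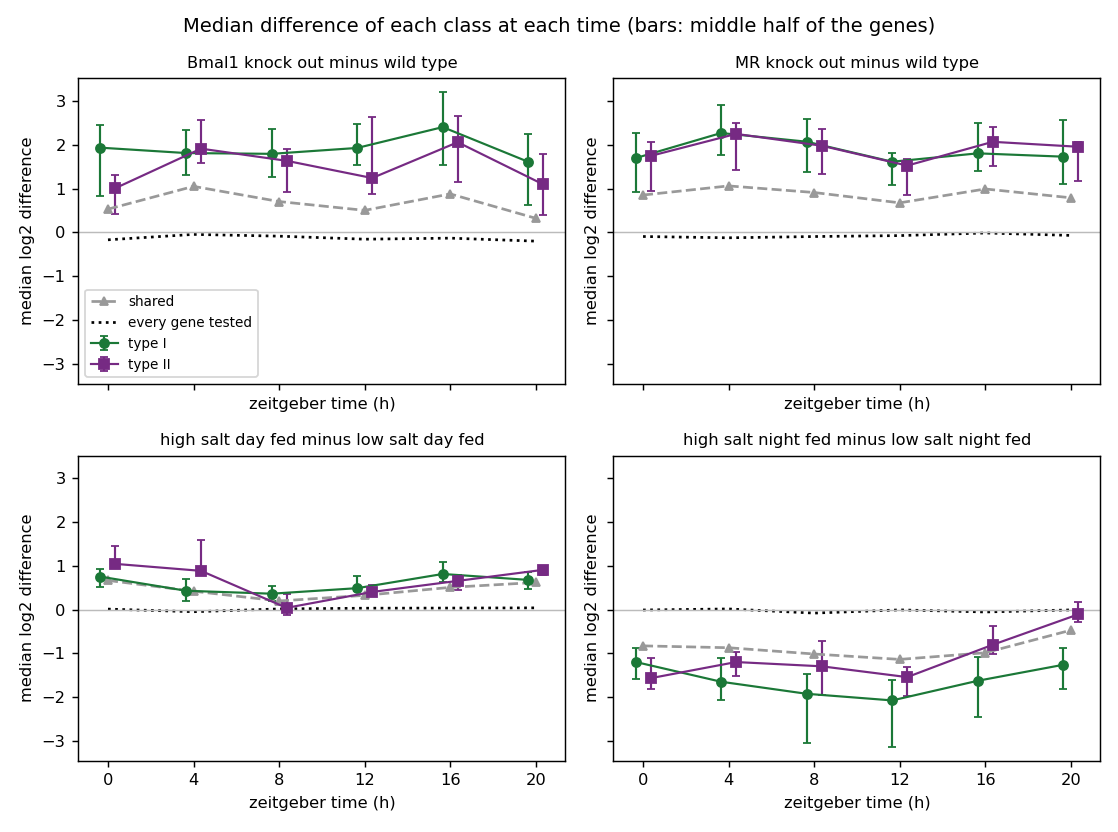
Median log2 difference of the type I, type II and shared members and of every gene tested at each zeitgeber time in 4 comparisons; bars span the quartiles of types I and II. Both knock outs lie above 0 at all times, high salt minus low salt lies above 0 in day fed mice, and in night fed mice it lies below 0, with type II reaching -0.11 at ZT20.

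High salt went with opposite differences by feeding time. In night fed mice all 44 members were lower on high salt than on low salt, where 19.6% of all genes were called lower, with a median log2 difference of -1.35 over the members and -0.03 over all genes. In day fed mice 42 were higher on high salt, where 7.79% of all genes were called higher, with a median of 0.58 against 0.01. Of the 44, 42 were called in both ways, as were 1.94% of all genes. The difference between the salt differences, day minus night, was positive and called for 43 members, where 11% of all genes were, with a median of 1.87 (2.12 over type I, 1.81 over type II and 1.35 over shared members; 0.04 over all genes). Mx1 was the member without that call (0.31 ± 0.15). The count was 43 without each of the replicate numbers in turn and without the libraries of low scale, where ZT8 drops out of the average.

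Night fed mice carried most of it. Isg15 ranged from 6.43 to 30.9 FPKM in high salt night fed (median 9.87) and from 22.3 to 185.7 in low salt night fed (median 81.4), a log2 difference of -2.77 ± 0.15 (adjusted p = 5.84e-21), so that it was 6.80-fold lower on high salt. In day fed mice it ranged from 57.6 to 146.8 on high salt (median 87.3) and from 21.6 to 125.9 on low salt (median 51.1), a log2 difference of 0.77 ± 0.15 (adjusted p = 0.000204). At night 1 high salt library lay above the lowest low salt libraries and the others below all of them, and the day fed groups overlapped. Ifi27l2a had the lowest night fed difference of all 11377 genes, -3.30 ± 0.24, with medians of 1.46 and 18.6 on high and low salt, and the highest difference between the salt differences, 4.55 ± 0.33. For 16 members, 14 of type I and 2 shared (Irf9 and Lgals3bp), every high salt night fed library lay below every low salt night fed library, as did 0.193% of all genes. In day fed mice 0 members and 0% of all genes were separated in that way.

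By role, the oligoadenylate synthetases were lower by 0.74 to 2.76 on the log2 scale in night fed mice and higher by 0.35 to 0.94 in day fed mice. Oasl2 had medians of 4.53 and 38.1 FPKM on high and low salt at night, and of 41.3 and 27.1 by day. Usp18 differed by -2.46 ± 0.13 at night and 0.95 ± 0.13 by day, and Ifit1 by -2.38 ± 0.13 and 0.79 ± 0.13. Ifit2 (-2.18 ± 0.16 and 1.31 ± 0.16) and Ifi44, a cytoplasmic interferon-induced protein (-2.43 ± 0.13 and 1.34 ± 0.13), were among the members with the largest differences by day. Irf7 had medians of 27.2 and 94.5 on high and low salt at night and of 101 and 72.7 by day, with log2 differences of -1.59 ± 0.13 and 0.45 ± 0.13. Stat2 differed by -0.74 ± 0.09 and 0.42 ± 0.09, and Zbp1 by -1.21 ± 0.13 and 0.71 ± 0.13.

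Type II leaning genes had a median difference at night of -0.97 against -1.54 over type I, and by day of 0.69 against 0.58; the difference between the classes was not tested. Iigp1 had the largest day fed difference of any member, 1.49 ± 0.26, with medians of 4.47 and 1.43 FPKM on high and low salt, and differed by -1.69 ± 0.26 at night, with medians of 0.708 and 4.10. Its ranges overlapped in both. Igtp differed by -1.55 ± 0.18 at night and 0.72 ± 0.18 by day, and Irgm1 by -0.95 ± 0.11 and 0.64 ± 0.11. Gbp2 differed by -0.97 ± 0.20 at night but was not called by day (0.54 ± 0.20, adjusted p = 0.0639). Irf1 had the smallest night difference, -0.21 ± 0.07 (adjusted p = 0.0167), with medians of 52.0 and 57.2 on high and low salt, and 0.30 ± 0.07 by day. The Irf1 night call was lost without replicates 1, 2 or 3 (adjusted p = 0.0503, 0.118 and 0.067 by limma). By day the calls of Igtp and Ifi27l2a were lost without replicates numbered 2 (adjusted p = 0.0564 and 0.0516), and that of Irf7 without those numbered 2 or 3 (0.0993 and 0.123).

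Across the 44 members the 2 salt differences, which share no library, ran against each other (Pearson r = -0.635, Spearman rho = -0.676; over the 26 type I members -0.759 and -0.808, over the 11 type II members -0.665 and -0.564). Genes are not replicates and these are descriptions. Mx1, an interferon-induced GTPase, stood apart: its log2 difference on high salt was -0.34 ± 0.11 at night (not called without replicates numbered 1, adjusted p = 0.129 by limma) and -0.04 ± 0.11 by day, although it was higher in both knock outs by 1.47 ± 0.13.

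**Figure D4:**
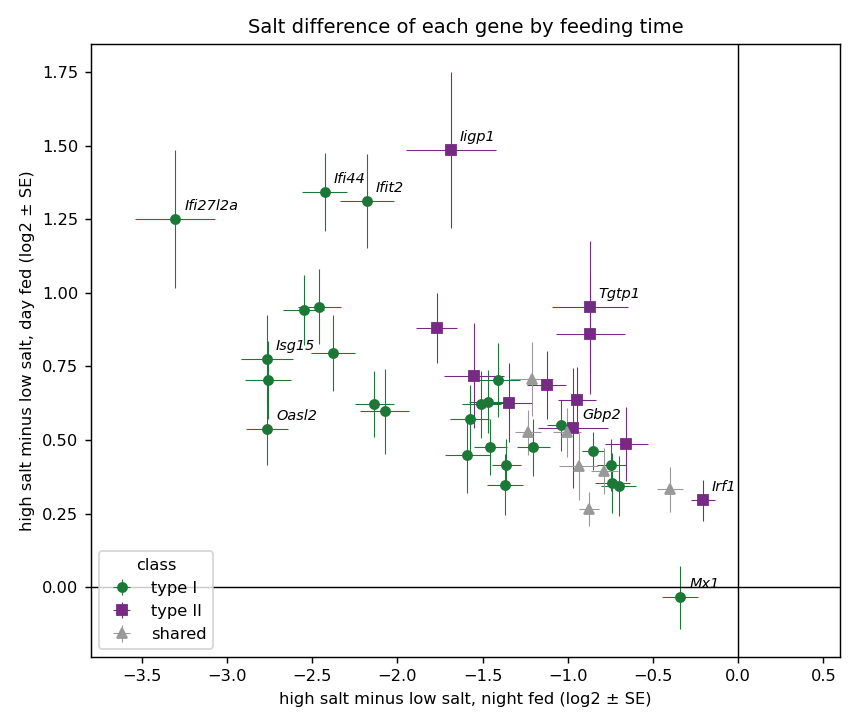
Log2 difference (± SE) of each member between high and low salt in night fed mice (x axis) and in day fed mice (y axis). All 44 lie left of 0 and all but Mx1 above 0; Ifi27l2a (-3.30, 1.25) is furthest left and Iigp1 (-1.69, 1.49) highest.

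The same 4 groups give the effect of feeding time on each diet. On high salt all 44 members were higher in day fed than in night fed mice, where 14.7% of all genes were, with a median log2 difference of 1.52 (1.73 over type I, 1.10 over type II; 0.02 over all genes). For 24 of them the groups did not overlap, as for 0.369% of all genes. On low salt 22 members were lower in day fed than in night fed mice and none was higher, where 2.29% of all genes were lower, with a median of -0.37. The largest of these were Iigp1 (-1.24 ± 0.26) and Ifi27l2a (-1.04 ± 0.24). That low salt count was 2 without replicates numbered 1 or 2, 10 without replicates numbered 3 and 9 without ZT12 or ZT20; 40 members had an unadjusted p under 0.05. The Iigp1 call was lost without replicates numbered 1 or 2 (adjusted p = 0.0941 and 0.142 by limma) and the Ifi27l2a call without those numbered 2 or 3 (0.238 and 0.0654). The salt and feeding comparisons share these libraries and are not independent.

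Over the day, 16 or more type I members were called lower on high salt in night fed mice at each of the 6 times, and type II members at 5 of the times. The members called lower on high salt numbered 30 at ZT0 (1.91% of all genes), 31 at ZT4 (1.4%), 36 at ZT8 (14.9%), 40 at ZT12 (8.75%), 31 at ZT16 (2.38%) and 18 at ZT20 (0.431%). In high salt night fed all 3 libraries at ZT8 and 2 of 3 at ZT12, the times with the most calls, are of low scale and none is at the other times; the part of scale in this order was not tested. The type I median log2 difference was -1.19 at ZT0, -2.07 at ZT12 and -1.26 at ZT20. The type II median was -1.56 at ZT0, -1.54 at ZT12 and -0.11 at ZT20, when 16 of 26 type I and 0 of 11 type II members were called (2 of the 11 had an unadjusted p under 0.05).

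Single genes showed it in each library. Iigp1 at ZT20 had 3.89, 2.39 and 2.89 FPKM in high salt night fed and 4.04, 2.69 and 2.06 in low salt night fed (log2 difference 0.07 ± 0.65), and at ZT12 it had 0.771, 0.275 and 0.285 against 3.34, 6.66 and 6.01 (-2.62 ± 0.65, adjusted p = 0.00415). The groups overlapped at ZT20 and not at ZT12. Isg15 at ZT12 had 8.39, 8.96 and 11.6 in high salt night fed and 94.2, 185.7 and 111.5 in low salt night fed (-3.64 ± 0.37). At ZT20 it had 30.9, 9.76 and 13.9 against 105.9, 58.1 and 53.5, still without overlap. In high salt night fed 1 library at ZT4 stood out, with 9.50 FPKM of Iigp1 and 18.3 of Gbp2 beside 0.303 and 0.320, and 1.90 and 3.01, in the others.

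The night fed difference was found to vary with time for 10 members, Isg15, Usp18, Oasl2, Oas3, Ifit1, Ifit3, Rsad2, Rtp4, Cmpk2 and Lgals3bp (9.32% of all genes did); 9 were type I and none type II. That count was 4, 0 and 4 without replicates 1, 2 and 3, and a difference in time course between the classes was not tested. In day fed mice 19 members were called higher on high salt at ZT0 (3.52% of all genes), 4 at ZT4 (1.62%), 0 at ZT8 (0.352%), 0 at ZT12 (1.23%), 6 at ZT16 (0.334%) and 1 at ZT20 (0.0527%). At an unadjusted p under 0.05 limma gave 7 members at ZT8 and 17 at ZT12. The median was positive at every time, from 0.27 at ZT8 to 0.80 at ZT0. No member varied with time in day fed mice (6.22% of all genes did, and 0 members had an unadjusted p under 0.05), and Ifit3 alone did for the difference between the salt differences (7.18%; 6 members had an unadjusted p under 0.05). The day fed calls summed to 30, and to 4, 6 and 17 without replicates 1, 2 and 3.

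**Figure D5:**
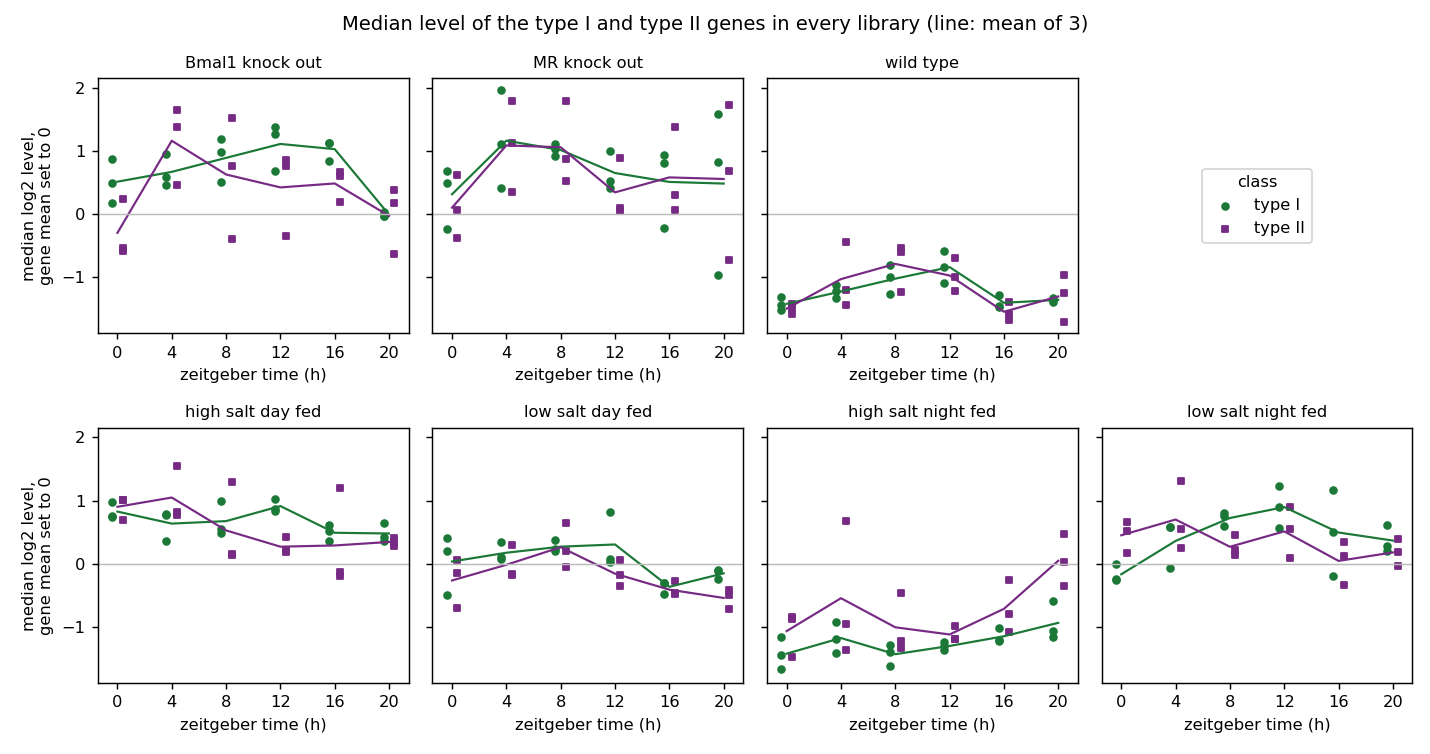
Median log2 level of the type I (circles) and type II (squares) members in every library, each gene centred on its mean, against zeitgeber time; lines join means of 3. In high salt night fed the type I median lies 0.50 below the type II median on average, and 1 MR knock out library at ZT20 lies at -0.96 for type I.

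Within a condition, daily variation was tested by fitting a 24 h cosine. Rhythmic members numbered 24 of Bmal1 knock out mice (56.7% of all genes were), 6 of MR knock out mice (21.7%) and 3 of wild type mice (17.7%; Oasl2, Rtp4 and Irf9). Among day fed mice they numbered 8 on high salt (31.6%) and 22 on low salt (42.2%), and among night fed mice 16 on high salt (57%) and 20 on low salt (22.6%). The share of members was above that of all genes in the low salt groups and below it in the other conditions. In low salt day fed all 22 fitted peaks fell between ZT4.89 and ZT8.87, with a mean of ZT6.43. In low salt night fed 17 of 20 fell between ZT10 and ZT13; the others were Irf1 at ZT2.91, Mx2 at ZT8.86 and Irf9 at ZT8.95. In high salt night fed 10 of 16 fell between ZT19 and ZT24 and 5 between ZT10 and ZT13. Those 5 were Irf7, Oas1a, Stat2, Zbp1 and Ifi35, and Oasl1 peaked at ZT14.4. With the scale factor as a covariate 5 members were rhythmic in that group. Its libraries of low scale lie at ZT8 and ZT12, and their part in these peaks was not tested.

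Isg15 averaged 44.5, 59.6, 74.8, 81.7, 40.4 and 47.2 FPKM from ZT0 to ZT20 in low salt day fed, and 28.3, 72.9, 93.8, 130, 109 and 72.5 in low salt night fed. It was highest at ZT12 in both, with its fitted peak at ZT8.87 by day and ZT12.0 at night. Ifit1 peaked at ZT6.25 in low salt day fed and at ZT12.1 in low salt night fed. The rhythm itself differed between the low salt groups for 15 members, a share below that of all genes (38.6%), so this was not particular to the members. They were 14 of type I and Irf1, in a test added after the data were seen. Without replicates 1, 2 and 3 that count was 8, 10 and 4. Without the same replicates the rhythmic members were 9, 4 and 12 of low salt day fed mice, 13, 15 and 12 of low salt night fed mice, 8, 4 and 20 of high salt night fed mice, 0, 2 and 10 of high salt day fed mice and 35, 0 and 17 of Bmal1 knock out mice.

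Of 40 other genes of the interferon pathway, 29 passed the filter. In Bmal1 knock out 12 were higher and 13 lower than in wild type, against 31.1% and 49.2% of all genes. In MR knock out 11 were higher and 6 lower, where 24.7% and 41.3% of all genes were. On high salt 1 was higher and 19 lower in night fed mice, against 15.4% and 19.6% of all genes, and 10 were higher and 0 lower in day fed mice, against 7.79% and 7.05%. The ligands were at or near 0: their summed FPKM had medians of 0.0226 in wild type to 0.26 in low salt night fed. The receptors as a set did not follow the members in the knock outs, with Ifnar1 differing by -0.21 and -0.10 and Ifngr1 by -0.42 and 0.00 in Bmal1 and MR knock out. Of the 6 receptors, 5 were lower and 1 higher in Bmal1 knock out (median -0.37). In MR knock out 1 was lower and 0 higher (median -0.004). They did go with the members at night, when 5 of the 6 receptors were lower on high salt (median log2 difference -0.20). By day 1 was higher (median 0.05). The day minus night salt difference was called higher for 5 of the 6 (median 0.27), as for 11% of all genes. Of the immunoproteasome and transporter genes Psmb8, Psmb9, Psmb10 and Tap1, all 4 were higher in both knock outs, 3 were lower on high salt at night and the same 3 higher by day, Psmb10 being the exception. Tap1, the peptide transporter, differed by 1.47 and 1.67 in the knock outs, by -1.17 on high salt at night and by 0.65 by day. Of 2 feedback inhibitors tested, Socs1 was higher in both knock outs (1.33 and 1.36) and was not called for salt (-0.24 at night, 0.33 by day). The other was lower in Bmal1 knock out and not called in MR knock out. It was higher on high salt by day and not called at night.

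Markers of other cells moved with some of these results. The summed FPKM of 7 T and NK cell markers had medians of 9.59 and 23.1 in the Bmal1 and MR knock outs and 9.07 in wild type (ranges 2.12 to 29.9, 3.16 to 55.9 and 3.42 to 13.9). In day fed mice the medians were 26.7 on high salt and 18.2 on low salt, and in night fed mice 7.70 on high salt and 35.2 on low salt (ranges 11.2 to 73.6, 9.40 to 55.3, 2.78 to 26.9 and 22.8 to 56.8). By gene, 0 of the 7 were called in Bmal1 knock out, 6 were higher in MR knock out, 7 were lower on high salt at night and 1 was higher by day. Their part in the knock out and salt results was not tested. The 4 MHC class II genes, which epithelial cells also express under interferon gamma, were higher in both knock outs and on high salt by day and lower on high salt at night, all 4 each time. The medians of their sum were 187 and 558 in the Bmal1 and MR knock outs and 13.5 in wild type, 243 and 95.7 on high and low salt by day, and 42.6 and 130.5 on high and low salt at night. Ptprc, the marker of all leukocytes, had medians of 0.333 and 0.83 in the Bmal1 and MR knock outs and 0.685 in wild type, 0.592 and 0.443 on high and low salt by day, and 0.325 and 0.953 on high and low salt at night. It was lower in Bmal1 knock out (-0.36), higher in MR knock out (0.34), lower on high salt at night (-0.70) and not called by day (0.34), and its day minus night salt difference was 1.04 and called. Small intestine markers also moved with the knock outs: the medians of the sum of 5 were 624 and 853 in the Bmal1 and MR knock outs and 319 in wild type, and 2 of the 3 tested were higher in each. On high salt 2 of these 3 were higher at night and 1 by day, with medians of the sum of 471 and 349 on high and low salt at night and of 462 and 338 by day. The 2 neutrophil markers had medians of their sum from 0 to 0.236, with single libraries reaching 45.8 in MR knock out and 20.4 in high salt day fed. Of the B and plasma cell markers 1 passed the filter, and it was higher in both knock outs and on high salt by day. The 1 plasmacytoid dendritic cell marker tested was higher in Bmal1 knock out, lower in MR knock out and higher on high salt at night. Of 2 macrophage and dendritic cell markers tested, 1 was higher in Bmal1 knock out. On high salt at night 1 was higher and 1 lower. The part of all these markers in the results was not tested.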

How the data were processed

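Colon RNA was sequenced as stranded mRNA libraries on Illumina, per the labels' protocols. The authors deposited FPKM values in 1 table per condition; TopHat2 2.1.1, Cufflinks 2.2.1 and build mm10 are named in the submitters' processing notes. Whether the 7 tables were normalized together is not stated there, and read counts and absolute depth are unknown; steps in the lowest values put the libraries' relative depth between 0.615 and 1.369 of the median.

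Each library was rescaled by the median of ratios over 6966 genes with at least 1 FPKM in every library. Genes with a mean of at least 1 in any condition were tested with limma 3.58.1 (R 4.3.3; intensity trend, robust) on log2(rescaled FPKM + 0.5). One fit held the 54 genotype libraries and another the 72 feeding libraries, each with a mean per condition and time; p-values were adjusted over all genes at 0.05. Differences are averages over the 6 times, or over the times left where leaving out libraries emptied a time. The fits were tested on simulated data. Values were read with python 3.11.15 (pandas 2.3.3).

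The members and lists were chosen with earlier results of these data known. Any member could be named; 12 were given for every comparison with the 5 largest and 5 smallest differences. Replicates of a time differed by a median absolute log2 of 0.089 to 0.531, so none was taken as a duplicate. Alternatives covered the pseudocount, the filter, the scaling, weights, the libraries fitted, the replicate block, and leaving out replicates, times and low-scale libraries.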

Additional observations from a re-analysis of the deposited data

Results flagged for a closer look

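The salt difference depended on feeding time, by a test of the difference itself (limma, adjusted over all genes), for 43 of 44 members. All 43 were called in the positive direction, as were 11% of all genes. The difference between the salt differences, day minus night, was largest for Ifi27l2a (4.55 on the log2 scale), Ifi44 (3.77), Isg15 (3.54), Oas3 (3.49) and Ifit2 (3.49). Among the members called it was smallest for Irf1 (0.50), Ifi35 (0.73), Ifih1 (1.05), Oas1a (1.09) and Irf9 (1.14).

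The 2 knock outs differed from each other for 14 of 44 members, a share below that of all genes (58.5%). The largest log2 differences, Bmal1 minus MR knock out, were Trim30a (-1.06), Ifit2 (-0.98), Bst2 (0.85), Gbp2 (-0.78) and Irgm2 (-0.53).

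The night fed salt difference varied over the 6 times for 10 members (9.32% of all genes did), and for 0 to 4 without 1 replicate number. The difference between the salt differences varied for 1 member, Ifit3, a share below that of all genes (7.18%). Without 1 replicate number that count was 0 to 2.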

How the results depend on the processing

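Over 21 alternatives the members called numbered 29 to 43 for Bmal1 knock out, 42 to 45 for MR knock out, 41 to 45 for high against low salt at night, 36 to 43 by day, 43 to 45 for day against night feeding on high salt and 42 to 44 for the difference between the salt differences. Depth limits members near 0 FPKM, and replicate numbers that share only a number do not pair libraries (mean correlation of deviations 0.063 in the genotype groups and -0.039 in the feeding groups). With the replicate block, the count of members whose salt differences vary with time between day and night feeding was 0 and no other count moved past 1.5 times. The cause was not tested for any change listed here. Under the alternatives the shares of all genes were not counted for single-time calls, variation with time or rhythm, so those counts are not results about the members alone.

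Without 1 replicate number in turn, the members called ranged from 8 to 14 between the knock outs and from 2 to 10 for low salt day against night. Calls at single times ranged from 90 to 167 for Bmal1 knock out, 35 to 183 for MR knock out, 118 to 158 for salt at night and 4 to 17 by day. Members varying with time ranged from 0 to 4 for salt at night and 0 to 2 for the difference between the salt differences. Rhythmic members ranged from 0 to 35 (Bmal1 knock out), 0 to 11 (MR knock out), 0 to 5 (wild type), 0 to 10 for high salt day fed, 4 to 12 for low salt day fed, 4 to 20 for high salt night fed and 12 to 15 for low salt night fed, and rhythm differences from 4 to 10.

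On the deposited FPKM without rescaling, 36 members differed between the knock outs (90.1% of all genes did). On low salt 12 were lower in day fed than in night fed mice (0.352%). Calls at single times were 77 in Bmal1 and 103 in MR knock out. Members varying with time were 21 in Bmal1 knock out, 41 for salt at night, 1 by day and 24 for the difference of both. Rhythmic members were 39 for the Bmal1 knock out, 0 for the MR knock out, 0 in wild type, 26 and 8 on high and low salt by day and 41 on high salt at night. Of all genes, 389 were then higher in Bmal1 knock out (3534 after rescaling), 914 in MR knock out (2813), and 267 on high salt by day (886); 9916 were lower on high salt at night (2226) and 40 lower by day on low salt (261). The higher share of calls was 3.75% in Bmal1 knock out (38.7% after rescaling), 16.4% in MR knock out (37.5%), 0.721% for salt at night (44.0%), 25.5% by day (52.5%) and 99.0% for the difference of both (55.7%). Under quantile normalization that last share was 44.2%, and 76.5% with the scale factor as a covariate.

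With array weights, members varying with time were 34 and 33 in the Bmal1 and MR knock outs, 43 for salt at night, 27 by day and 35 for the difference of both. Rhythmic members were then 26 in wild type, 34 and 35 on high and low salt by day, 27 and 37 on high and low salt at night, with 32 rhythm differences, 136 single-time calls for salt by day and 37 members for low salt day against night. With the scale factor as a covariate the knock outs differed in 3 members (28.4% of all genes did). In that setting 4 varied for salt at night and 4 for the difference of both, and 57 single-time calls were made by day. Rhythmic members were then 13, 5, 3 and 5 in Bmal1 knock out, wild type, high salt day fed and high salt night fed. The compared libraries alone gave 9 varying members in Bmal1 knock out and 3 for salt at night. All libraries in 1 fit gave 3, 4 and 0 varying members for Bmal1 knock out, salt at night and the difference of both, 13 single-time calls by day and 11 members for low salt day against night, which was 9 without ZT12 or ZT20. Wild type had 10 rhythmic members at a pseudocount of 0.1 and 5 under quantile normalization. Without a filter MR knock out had 3, and no filter, like quantile normalization, gave 0 varying members for the difference of both. Without low-scale libraries the knock outs differed in 6 members.

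Some differences changed sign, among them those of Gbp7 and Trim30a, which had been called higher in Bmal1 knock out. In Bmal1 knock out against wild type Irf1 was -0.8265, Dtx3l -0.6871, Gbp7 -0.0473 and Trim30a -0.1915 without rescaling; Irf1 was -0.0271 under quantile normalization and -0.0051 to 0.1199 without 1 replicate number; Ifih1 was 0.101 under quantile normalization, 0.0152 without ZT0, 0.0345 without ZT20 and 0.1061 with the covariate. Mx1 on high salt by day was 0.0312 without ZT4 and 0.0321 without ZT20. Between the knock outs, Dhx58 was -0.6132 without rescaling, -0.0661 with array weights, -0.037 to 0.0802 without 1 replicate number, and -0.0188, -8e-04 and -0.0258 without ZT12, ZT16 and the low-scale libraries. Mx1 was 0.0744 under quantile normalization and 0.1051, 0.0459, -0.1691, 0.0571 and 0.0273 without replicates 1, 2 and 3, ZT8 and ZT20. Rtp4 was 0.0551 under quantile normalization, 0.0569 with the covariate, and 0.0383, 0.0674, -0.1382, 0.0569, 0.0475 and 0.0534 without replicates 1, 2 and 3, ZT4, ZT8 and ZT20. Gbp3 was 0.0396, 0.0199 and 0.0789 under quantile normalization, array weights and the covariate, -0.1337 to 0.1107 without 1 replicate number, and 0.005, 0.0243, 0.0983 and 0.0021 without ZT0, ZT4, ZT8 and ZT20. Ifit1 was 0.0292 and 0.0153 under quantile normalization and array weights, -0.1453 to 0.0773 without 1 replicate number, and 0.1635, 0.041 and 0.0791 without ZT4, ZT8 and ZT20.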
